A study of Mus musculus with 4 samples.

Results

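Olfactory sensory neurons (OSNs) whose transcripts held Omp and Gap43 together were described in single-cell RNA libraries of the mouse main olfactory epithelium. A droplet barcode stands here for 1 captured cell or a mixture of cells, and a UMI for 1 counted RNA molecule. Barcodes with at least 500 detected genes and at most 10% mitochondrial UMIs were kept. The newly mature ones were chosen by their UMIs of 3 genes and had at least 20 UMIs of Omp, at least 3 of Gap43, more Omp than Gap43 and at most 15 of Cyp2g1. This rule found 1326 of 39715 barcodes, namely 364, 345, 279 and 338 in the libraries female 1, female 2, male 1 and male 2. All values given for 4 libraries follow this order.

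The 4 libraries came from wild-type C57BL/6J mice aged 3 months, 2 libraries from females and 2 from males. The epithelium was dissociated with papain. The labels name no treatment, and all 4 libraries share strain, age and genotype. The title of the series concerns neurexins, presynaptic organizers, in the targeting of olfactory axons. Each library is counted as 1 replicate of its sex, and nothing in the labels says that it came from more than 1 animal. The labels also do not say whether the libraries were prepared together.

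OSNs are replaced throughout life from basal cells of the epithelium. An immature OSN grows an axon towards the olfactory bulb and makes Gap43, a growth cone protein, and Gng8, a G protein subunit. A mature OSN makes Omp, the olfactory marker protein, carries cilia with the odour transduction machinery, and transcribes mainly 1 odorant receptor gene. Cells that hold both Omp and Gap43 are usually placed at the passage from one stage to the other. Cyp2g1 is an enzyme of the sustentacular cells, which support the neurons.

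The members were compared, within each library, with 2 sets of barcodes on either side of them. The Gap43-zero mature barcodes had at least 20 UMIs of Omp, none of Gap43 and at most 15 of Cyp2g1, and numbered 3501, 3468, 3524 and 3657. The immature barcodes had at least 3 UMIs of Gap43, at most 5 of Omp and at most 15 of Cyp2g1, and numbered 571, 500, 504 and 492. A further 1592 barcodes with 1 or 2 UMIs of Gap43 and 379 with 6 to 19 UMIs of Omp lay between these sets and are described without a test. Omp, Gap43 and Cyp2g1 chose the barcodes, so their levels are a description and support nothing. The other genes were not used by the rule, although Stmn4 and Calb2 were proposed as markers from earlier results of the same libraries.

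The libraries held 100725429 to 111577458 UMIs in all, and 493 to 610 barcodes per library failed the filters. A chi-square statistic of the counts, divided by the number of genes, lay between 21.8 and 39.5 in all 6 pairs of libraries, far above sampling noise. Pairs of libraries shared 126 to 149 barcode sequences, of which at most 1 per pair was newly mature in both. Intervals given below cover counting error only, and p-values measure the spread between these 4 libraries.

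The gate genes took intermediate levels in the newly mature barcodes. Levels are CPM, the UMIs of a gene scaled by all UMIs of the barcodes summed in a library, without scaling for gene length. The summed level of Omp was 5158, 4961, 5106 and 5155 CPM, against 8901, 9297, 8964 and 9567 CPM in the Gap43-zero mature and 146, 134, 155 and 161 CPM in the immature barcodes. The level of Gap43 was 697, 779, 781 and 805 CPM, against 1599, 1803, 1819 and 1881 CPM in the immature barcodes. For both genes the newly mature values of all 4 libraries lay between those of the neighbouring sets, which the rule fixes in part. The median member had 71 UMIs of Omp and 8 of Gap43, with highest values of 262 and 67.

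The members made up a small share of the Omp-rich barcodes, which are those with at least 20 UMIs of Omp and at most 15 of Cyp2g1. The share was 8.46% of 4304 barcodes in female 1 (95% exact Clopper-Pearson interval 7.64 to 9.33) and 8.18% of 4220 in female 2 (7.37 to 9.04). It was 6.64% of 4203 in male 1 (5.90 to 7.43) and 7.62% of 4435 in male 2 (6.86 to 8.44). The mean was 7.72% ± 0.802 (SD, n = 4). Both female values lay above both male values, with means of 8.32% ± 0.199 and 7.13% ± 0.695 (SD, n = 2 each). The difference of -1.19 percentage points, male minus female, had a two-sided exact permutation p of 0.333, which is the smallest that 2 libraries against 2 allow.

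The edges of the rule were well filled on the Gap43 side and thin on the Omp side. Exactly 3 UMIs of Gap43 were held by 179 members, while 376 barcodes otherwise within the rule had exactly 2 and 1216 had exactly 1. From 20 to 24 UMIs of Omp were held by 47 members, and 32 barcodes just outside had 15 to 19. The requirement of more Omp than Gap43 left out 94 barcodes. From 11 to 15 UMIs of Cyp2g1 were held by 8 members, and 10 barcodes just outside had 16 to 20. In all, 460 barcodes were left out for more than 15 UMIs of Cyp2g1, and their median depth was 30340 UMIs.

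The sustentacular barcodes served as a background for these UMI thresholds. Of 7715 barcodes with at least 50 UMIs of Cyp2g1, 25.9% had at least 20 UMIs of Omp, 23.3% had at least 1 of Gap43 and 10.7% had at least 3, at a median depth of 16249 UMIs. Sustentacular cells should lack both transcripts, but these barcodes need not be single cells. At least 3 UMIs of an odorant receptor were held by 34.6% of them, and 19.6% had a high doublet score, described below. The part of mixtures with neurons in these barcodes was not tested. The levels of Omp (1368 ± 105 CPM, mean and SD of 4 libraries) and Gap43 (110.1 ± 4.11 CPM) there were below those of the newly mature barcodes.

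The newly mature barcodes were deeper than their neighbours, which the rule fixes in part because its limits are numbers of UMIs. Their median depth was 13753.5, 13758, 13742 and 12626.5 UMIs, against 8686, 8355, 8279 and 7913 in the Gap43-zero mature barcodes. In the immature barcodes it was 10155, 10364.5, 9778 and 9470.5 UMIs. The difference from the Gap43-zero mature barcodes was in the same direction in 4 of 4 libraries, with a two-sided exact paired permutation p of 0.125, the smallest that 4 pairs allow. Among barcodes otherwise within the rule, the median depth was 9615.5, 11521.5 and 12231 UMIs at exactly 1, 2 and 3 UMIs of Gap43. The difference in depth is therefore a description. A median of 4566 genes was detected in the newly mature, 3373 in the Gap43-zero mature and 4012 in the immature barcodes. The mitochondrial share of UMIs was lowest in the newly mature barcodes, with a median of 1.09% against 1.72% and 1.31%. A depth-matched comparison, with Gap43-zero mature barcodes drawn to the depth of the newly mature ones, is given below for the gene lists.

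**Figure D1:**
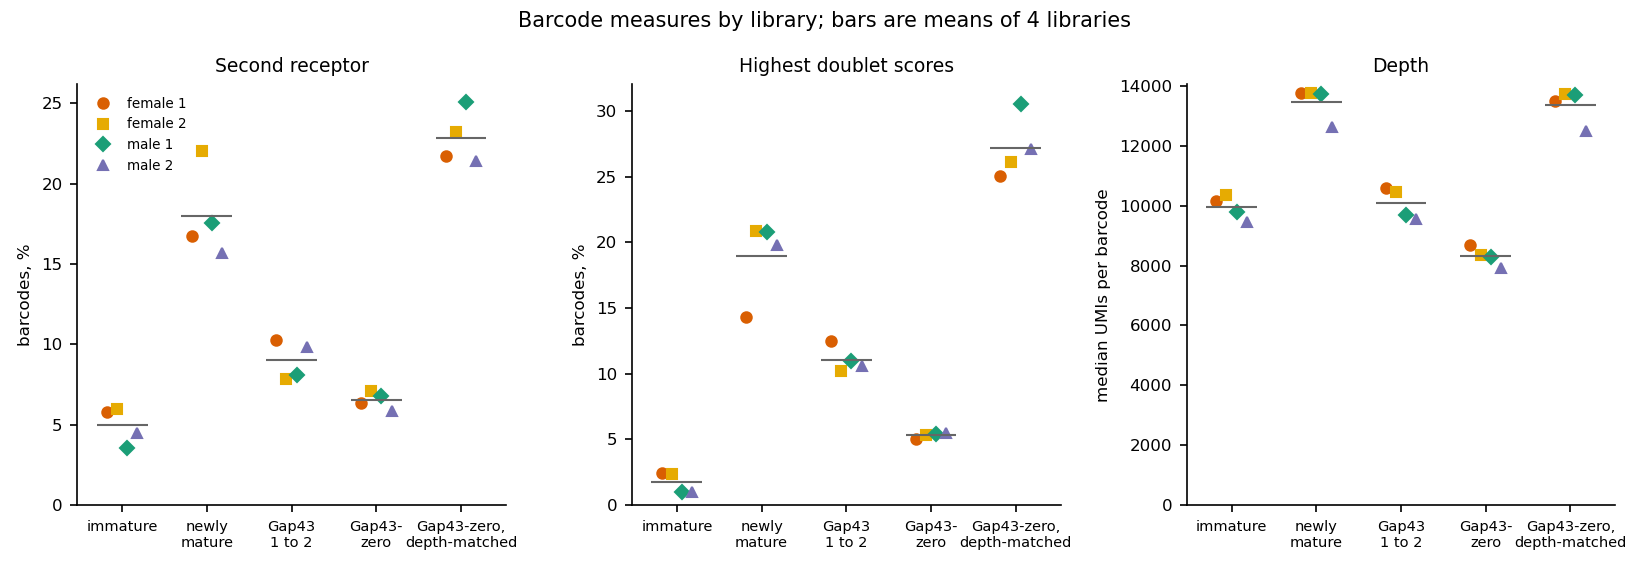
Barcodes with a second receptor (%), barcodes with a high doublet score (%) and median UMIs per barcode, by group; points are libraries and bars are means of 4 libraries. The newly mature points lie above the immature and Gap43-zero points in all 3 panels, and their mean shares lie below those of the depth-matched Gap43-zero barcodes.

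More of the newly mature barcodes than of their neighbours held a second odorant receptor. A receptor was counted as held from 3 UMIs. A second receptor was held by 16.8%, 22.0%, 17.6% and 15.7% of the newly mature barcodes (mean 18% ± 2.79, SD, n = 4). It was held by 6.37%, 7.12%, 6.78% and 5.88% of the Gap43-zero mature barcodes (6.54% ± 0.536). The difference of 11.5 percentage points was found in 4 of 4 libraries, with an exact paired permutation p of 0.125. Among the immature barcodes the share was 4.96% ± 1.14 (SD, n = 4).

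The direction of this difference turned against depth-matched barcodes, but was kept when barcodes were thinned to the same number of UMIs. When Gap43-zero mature barcodes were drawn to the same depth deciles, 22.8% ± 1.70 (SD, n = 4) of them held a second receptor, so the newly mature barcodes were lower by 4.83 percentage points in 4 of 4 libraries (exact paired permutation p = 0.125). With every barcode thinned to 2000 UMIs the shares were 9.82% and 3.52%, a difference of 6.30 percentage points. A high doublet score, from comparison with simulated pairs of barcodes, was given to 18.9% ± 3.14 (SD, n = 4) of the newly mature and 5.31% ± 0.196 of the Gap43-zero mature barcodes. In the depth-matched Gap43-zero mature barcodes it was given to 27.2% ± 2.38. Depth and doublet score changed together in this draw, and the part of each was not tested. The 239 newly mature barcodes with a second receptor had a median of 18749 UMIs and 47.7% of them had a high doublet score, against 12995 UMIs and 12.7% of the 1011 with 1 receptor. A stricter comparison, chosen after seeing the data, kept only barcodes with 1 receptor and without a high doublet score, and drew the Gap43-zero mature ones to the same depth. It left 247, 219, 177 and 240 of each kind. It is called the single-receptor comparison below.

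Stmn4 and Calb2 distinguished the newly mature barcodes from both neighbours. Stmn4 encodes a stathmin, a regulator of microtubules in neurons. Its level was 252, 221, 190.3 and 248 CPM in immature barcodes, 382, 434, 358 and 313 CPM at 6 to 19 UMIs of Omp and 861, 840.2, 827 and 849 CPM in newly mature barcodes. It was 817, 739, 797 and 819 CPM at 1 or 2 UMIs of Gap43 and 519, 501, 504 and 511 CPM in Gap43-zero mature barcodes. The newly mature values did not overlap with those of the immature or the Gap43-zero mature barcodes, and lay just above those of the barcodes with 1 or 2 UMIs of Gap43. The log2 difference from the Gap43-zero mature barcodes was 0.62 ± 0.02 (SE, edgeR adjusted p = 7.7e-06), and that from the immature barcodes 2.06 ± 0.06 (SE, edgeR adjusted p = 1.5e-07). In the single-receptor comparison the first was 1.18.

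Calb2 encodes calretinin, a calcium-binding protein whose level in OSNs is known to vary with odour activity. Its level was 1139, 1243, 1232 and 1256 CPM in immature barcodes, 2278, 2734, 2335 and 2370.2 CPM at 6 to 19 UMIs of Omp and 1617, 1495, 1478 and 1597 CPM in newly mature barcodes. It then lay at 601, 631, 559 and 459 CPM at 1 or 2 UMIs of Gap43 and 268, 242, 242 and 205 CPM in Gap43-zero mature barcodes. The highest values were those of the barcodes with 6 to 19 UMIs of Omp, just before the newly mature ones in this order. The log2 difference from the Gap43-zero mature barcodes was 2.58 ± 0.07 (SE, edgeR adjusted p = 7.4e-06), and that from the immature barcodes 0.51 ± 0.06 (SE, edgeR adjusted p = 1.3e-04). The 2 comparisons share the newly mature sums, so their values are not independent.

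**Figure D2:**
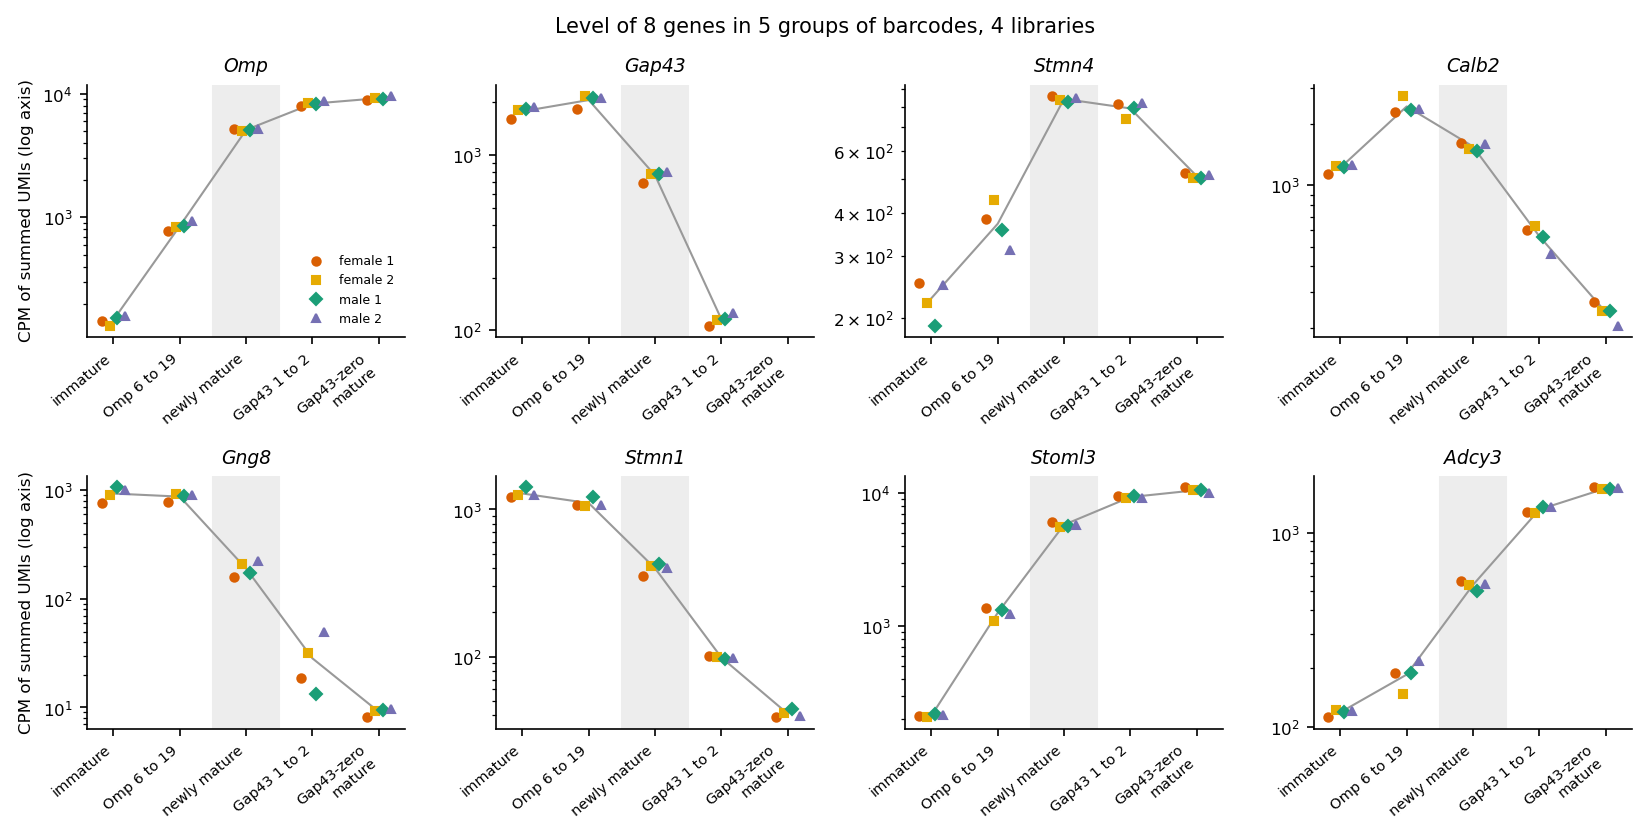
Level of 8 genes (CPM, log axis) in 5 groups of barcodes ordered from immature to Gap43-zero mature; points are libraries, lines join means, and the newly mature group is shaded. Omp is higher in each group than in the one to its left, Gap43 is highest at 6 to 19 UMIs of Omp and has no value at 0 in the last group, and Stmn4 is highest in the newly mature barcodes.

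The marker lists placed the members between immature and mature OSNs. Of the 9 mature OSN markers tested other than Omp, all were lower than in the Gap43-zero mature and all were higher than in the immature barcodes. Of the 11 immature OSN markers tested other than Gap43, all were higher than in the Gap43-zero mature barcodes, and 9 were lower and 1 higher than in the immature ones. The summed level of the mature list was 18711 to 20410 CPM, against 31852 to 32897 in the Gap43-zero mature and 1826 to 2285 in the immature barcodes. For the immature list it was 7174 to 7718 CPM, against 2959 to 3070 and 13313 to 14321. Of the 6 markers of immediate neuronal precursors, 4 were higher and 1 lower than in the Gap43-zero mature barcodes, and all 6 were lower than in the immature ones.

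Of the marker lists of other cell types, the sustentacular and ciliated ones had the highest sums, and the others below summed to at most 151 CPM. The sustentacular list summed to 390 to 750 CPM in the newly mature and 510 to 624 CPM in the Gap43-zero mature barcodes, with 0 of 7 members tested higher and 1 lower. For horizontal basal cells the sums were 1.51 to 60.8 CPM, for olfactory glands 3.92 to 72.7 CPM and for fibroblasts 10.8 to 49.9 CPM, and none of the 4 members of each list passed the test. The microvillar (3.86 to 11 CPM) and endothelial (2.16 to 4.03 CPM) lists also had no member past it. Immune markers summed to 27.5 to 106 CPM, with Cd3e at 0 and 1 of 5 tested lower. The glial list reached 15.4 to 151 CPM through Apod, with 1 member higher and 2 lower. Foxj1 and Dynlrb2, listed as ciliated cell markers, were at 200.2, 178, 168 and 182 CPM and 133, 147, 144 and 150.1 CPM, and at 281, 282, 256 and 263 CPM and 194, 215, 204 and 222 CPM in the Gap43-zero mature barcodes. Their list summed to 312 to 337 CPM, against 462 to 500 CPM in the Gap43-zero mature barcodes, and had 3 of 4 members lower. Globose basal markers summed to 89.1 to 115 CPM, against 71.1 to 76.9 in the Gap43-zero mature barcodes, with 1 of 6 higher. Red blood cell markers summed to 3.85 to 10.0 CPM, against 69.9 to 222, with 3 of 3 lower. Against depth-matched Gap43-zero mature barcodes more of these markers were lower, namely 4 of 4 horizontal basal, 6 of 7 sustentacular, 5 of 6 globose basal, 3 of 5 immune, 2 of 4 gland, 2 of 4 glial, 1 of 4 fibroblast and 1 of 4 microvillar ones, and 1 globose basal marker was higher. Under the single-receptor comparison 1 of 7 sustentacular, 0 of 3 globose basal, 0 of 2 gland and 0 of 1 microvillar markers were lower. There 3 of 3 immune, 3 of 4 glial, 1 of 3 fibroblast, 1 of 1 endothelial and 2 of 2 ciliated ones were lower, and 1 globose basal marker was higher. No horizontal basal marker was left to test there. The part of other cells in the results was not tested.

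Against the Gap43-zero mature barcodes the newly mature ones differed in much of the transcriptome. Of 14300 genes tested, 7214 passed an edgeR adjusted p of 0.05, which is 50.4%. Of these, 3394 (23.7%) were higher and 3820 (26.7%) lower in the newly mature barcodes. Without TMM scaling, which aligns the bulk of genes between sums, 4617 were higher and 2683 lower, and the median difference of all genes moved from -0.02 to 0.09 on the log2 scale. The single-receptor comparison called 3735 of 11196 genes, 1934 higher and 1801 lower, and 3335 of these were also among the 7214. The depth-matched comparison called 5524 of 12726 genes, 2833 higher and 2691 lower. With so many genes called, the count of a list has to be read against that of all genes in the same comparison.

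The 15 genes named for the largest positive differences were, apart from Kif19a, higher still in the immature barcodes. They were taken from genes that passed the test in the same direction in 4 of 4 libraries with at least 50 CPM in the higher group. Stk32a, a serine/threonine kinase gene, stood at 165, 163, 147 and 152 CPM in newly mature and 3.14, 3.39, 2.98 and 3.21 CPM in Gap43-zero mature barcodes. Its log2 difference of 5.51 ± 0.04 (SE, edgeR adjusted p = 1.8e-07) was the largest of the 15 genes named. In the immature barcodes it was at 383, 372, 346 and 344 CPM, above the newly mature values in each library.

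Kif19a, a kinesin that limits the length of cilia, followed with 362, 317, 353 and 341 CPM against 15.1, 13.2, 10.4 and 11.3 CPM. The log2 difference was 4.67 ± 0.09 (SE, edgeR adjusted p = 4.3e-06). Its immature level of 349, 318, 298 and 331 CPM overlapped with the newly mature one, with a log2 difference of 0.25 ± 0.04 (SE, edgeR adjusted p = 0.00174).

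Gng8 encodes the G protein gamma subunit of immature OSNs. It was at 158, 209, 172 and 221 CPM in newly mature, 8.15, 9.27, 9.47 and 9.62 CPM in Gap43-zero mature and 766, 900.2, 1063 and 1011 CPM in immature barcodes. None of the 3 groups overlapped, and the log2 differences were 4.26 ± 0.07 (SE, edgeR adjusted p = 1.9e-06) and -2.13 ± 0.09 (SE, edgeR adjusted p = 8.9e-07).

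The other 12 of the 15 differed by 3.06 to 4.21 on the log2 scale. They were the intermediate filament genes Vim (4.21) and Prph (3.61), the Ly6 family gene Ly6h (3.99) and the cAMP phosphodiesterase Pde8a (3.76). Transcription factors were Insm1 (3.69) and Sox11 (3.06), and Fabp5 (3.27) encodes a fatty acid-binding protein. Growth cone and cytoskeletal genes were Dpysl3 (3.93), Tubb2b (3.65), Marcksl1 (3.20), Stmn1 (3.16) and Basp1 (3.13). All 15 passed the test in the same direction under every alternative run for this comparison, the single-receptor one included. There the values of Vim and Prph moved to 2.11 and 1.46, the largest moves of the 15, while Insm1 stayed at 3.67 and Sox11 at 2.98.

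The genes with the largest negative differences included several of the mature OSN. Adcy3, the adenylyl cyclase of odour transduction, was at 565, 537, 502 and 546 CPM in newly mature and 1706, 1670.1, 1683 and 1697 CPM in Gap43-zero mature barcodes. The log2 difference was -1.77 ± 0.03 (SE, edgeR adjusted p = 2.2e-06). Against the immature barcodes, at 112, 122, 119.9 and 121 CPM, it was 2.35 ± 0.06 (SE, edgeR adjusted p = 1.1e-07). The newly mature values lay between those of the 2 neighbours without overlap.

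Myo6, an actin motor that moves towards the minus end of filaments, was at 364, 326, 304 and 326 CPM against 1100.5, 1081, 1074 and 1089.6 CPM, a log2 difference of -1.83 ± 0.04 (SE, edgeR adjusted p = 4.4e-06). Kcns3, a potassium channel subunit, was at 42.7, 43.0, 37.3 and 42.3 CPM against 174, 174, 168 and 171 CPM, a difference of -2.17 ± 0.04 (SE, edgeR adjusted p = 2.2e-06). Slc1a2, a glutamate transporter, was at 34.1, 35.1, 28.9 and 32.1 CPM against 118, 117, 125 and 124 CPM, a difference of -2.0 ± 0.06 (SE, edgeR adjusted p = 1.1e-05). For each of these the newly mature values lay below the Gap43-zero mature ones and above the immature ones without overlap.

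Cd55, which encodes the complement decay-accelerating factor, took another course. It was at 106, 86.6, 90.7 and 93.9 CPM in immature, 67.6, 64.2, 59.6 and 52.4 CPM in newly mature and 201, 245, 227 and 188 CPM in Gap43-zero mature barcodes. The newly mature values were the lowest of these 3 groups in every library, with log2 differences of -1.93 ± 0.07 (SE, edgeR adjusted p = 1.4e-05) and -0.46 ± 0.07 (SE, edgeR adjusted p = 7.5e-04). In the single-receptor comparison the first was -2.74.

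The cadherin gene Cdh23 (-2.88), Mob3b (-2.66), the microtubule-linker gene Clip4 (-2.64), Tmem59l (-2.33), the endocytosis gene Pacsin3 (-1.92), Gm11992 (-1.79) and Lrrc43 (-1.74) completed the neuronal part of the 15. Except for Cd55, these named genes were also higher in the newly mature than in the immature barcodes, by 1.51 to 4.21 on the log2 scale. The other 3 of the 15 are known from other cells. Hbb-bs, a beta globin of red blood cells, was at 3.85, 9.84, 5.39 and 7.55 CPM against 212, 120.4, 132 and 67.4 CPM, and Bpifa1, a secreted airway protein, was at 168, 279, 149 and 169 CPM against 1135, 2385, 1499 and 1004 CPM. Reg3g, an antimicrobial lectin, was at 22.4, 43.2, 15.4 and 16.2 CPM against 91.6, 118, 118 and 104 CPM. Hbb-bs, Bpifa1 and Reg3g did not pass the test in the single-receptor comparison (log2 -2.27, -0.58 and -1.13), whereas the 12 others did.

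**Figure D3:**
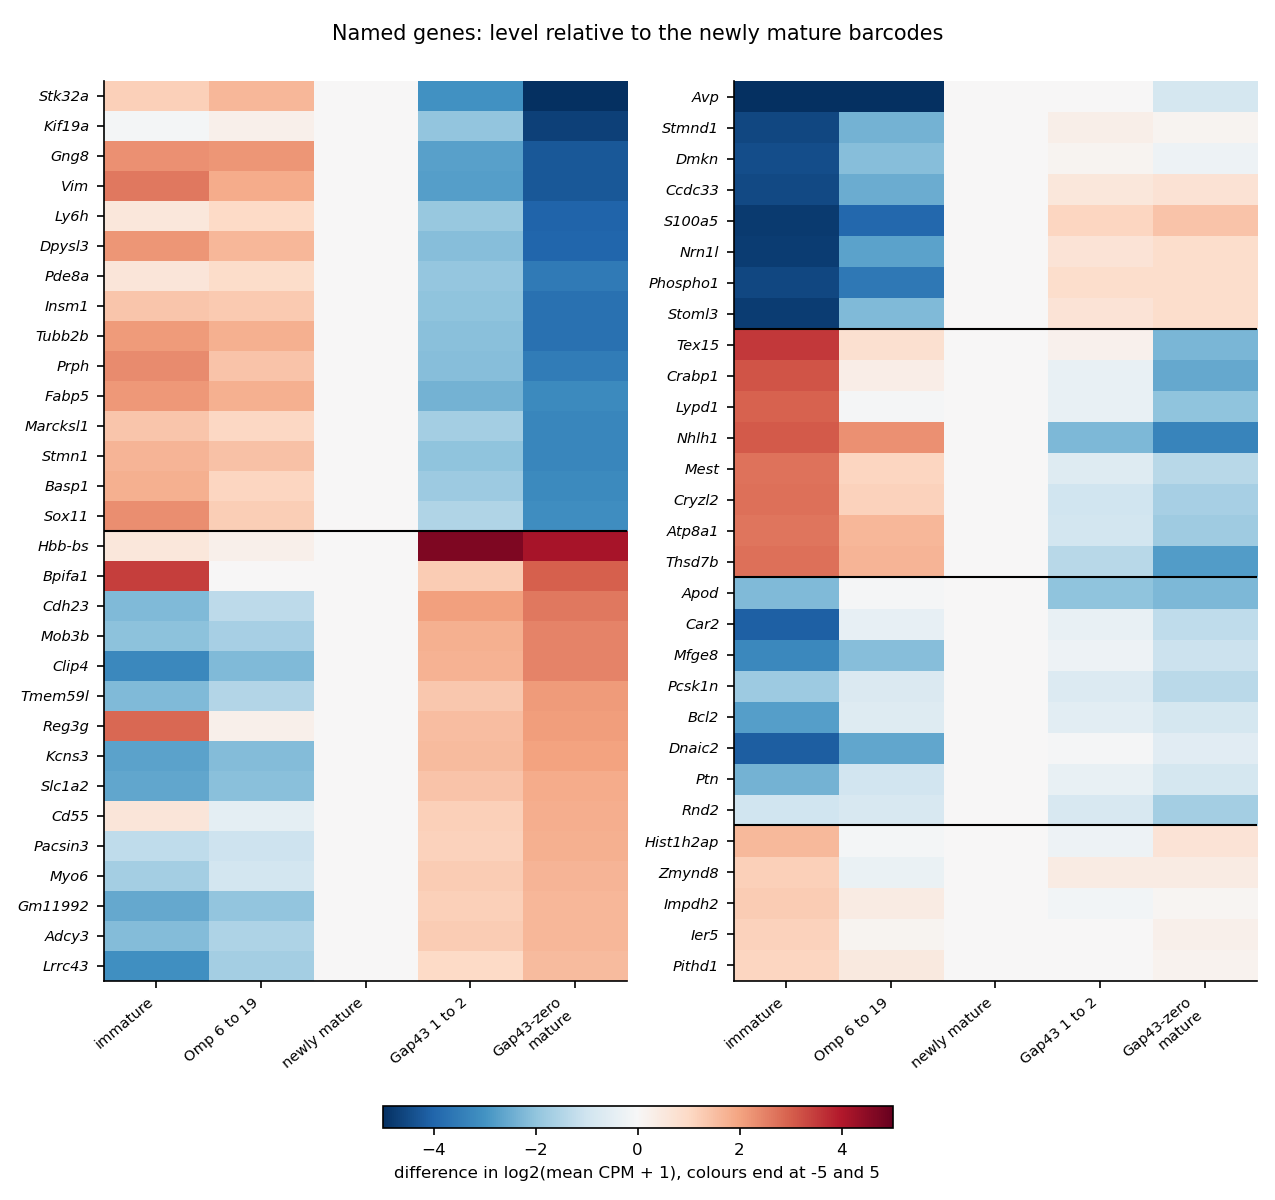
Levels of the named genes in the groups of barcodes, as the difference in log2(mean CPM + 1) from the newly mature barcodes. The 15 genes higher than in Gap43-zero mature barcodes are mostly as high or higher in immature barcodes, and most of the 15 lower genes are lowest in immature barcodes.

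Promoter sequences are shown for 4 of the named genes, 2 higher and 2 lower than in Gap43-zero mature barcodes, so that the letters near genes that moved in opposite directions can be compared. Each is the 250 bases before a RefSeq transcript start on GRCm38.p6, written from 5′ to 3′ on the strand of the gene. Capitals mark matches to CCCNNGGG, the core of the motif bound by early B-cell factors (Ebf), or to TAATTA, a core bound by homeodomain proteins. Both motifs read the same on the other strand, so 1 search covers both strands, and neither can overlap the other.
Gng8, chr7:16891536-16891785, plus strand: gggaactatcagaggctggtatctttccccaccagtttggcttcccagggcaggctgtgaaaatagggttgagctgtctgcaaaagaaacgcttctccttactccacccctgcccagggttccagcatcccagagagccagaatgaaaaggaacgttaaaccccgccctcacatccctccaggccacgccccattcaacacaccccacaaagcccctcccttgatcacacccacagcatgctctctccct
Sox11, chr12:27342719-27342968, minus strand: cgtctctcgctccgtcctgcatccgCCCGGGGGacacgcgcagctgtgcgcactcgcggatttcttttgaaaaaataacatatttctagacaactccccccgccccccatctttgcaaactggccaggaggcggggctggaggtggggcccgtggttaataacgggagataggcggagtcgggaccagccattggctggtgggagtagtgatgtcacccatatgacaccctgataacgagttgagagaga
Myo6, chr9:80164784-80165033, plus strand: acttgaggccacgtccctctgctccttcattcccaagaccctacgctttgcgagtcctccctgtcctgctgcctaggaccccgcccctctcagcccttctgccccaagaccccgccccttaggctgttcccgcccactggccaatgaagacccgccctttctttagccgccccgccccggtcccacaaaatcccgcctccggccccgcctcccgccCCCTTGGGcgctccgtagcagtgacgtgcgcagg
Clip4, chr17:71769441-71769690, plus strand: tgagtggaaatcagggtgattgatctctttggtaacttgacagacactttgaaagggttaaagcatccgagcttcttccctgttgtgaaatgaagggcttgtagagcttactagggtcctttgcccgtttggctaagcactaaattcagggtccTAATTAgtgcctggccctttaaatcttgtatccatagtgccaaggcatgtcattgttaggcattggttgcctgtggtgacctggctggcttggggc
The window of Gng8 held neither motif, those of Sox11 and Myo6 held CCCNNGGG, and the Clip4 window shown held TAATTA. Clip4 has other start sites, whose windows are not shown. That at chr17:71781049-71781298 held CCCNNGGG, and that at chr17:71781697-71781946 held neither motif. CCCNNGGG was found in 1 of 7 windows of the genes named as higher (14.3%) and in 4 of 20 of those named as lower (20.0%), against 11.8% of all 32851 windows. TAATTA was found in 0 of 7 and 2 of 20 windows (10.0%), against 4.84% of all. The table holds 7 of the 15 higher genes and all 15 lower ones, some with more than 1 start site, and has no entry for Dpysl3, Fabp5, Insm1, Kif19a, Ly6h, Stk32a, Stmn1 and Tubb2b. Such a match is a description of the letters and shows no binding.

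Genes of the growth cone and cytoskeleton were mostly higher in the newly mature barcodes than in the Gap43-zero mature ones and lower than in the immature ones. Of 34 tested, 29 were higher and 3 lower than in the Gap43-zero mature barcodes, with a median log2 difference of 1.38 against -0.02 over all genes. The largest differences were those of Dpysl3, a collapsin response mediator (3.93), Tubb2b, a tubulin (3.65), the microtubule-associated Mapt (3.31) and Marcksl1 (3.20). Dpysl3 was at 295, 359, 342 and 357 CPM, against 20.2, 21.2, 19.6 and 20.7 CPM and 1417, 1586, 1616 and 1641 CPM in the Gap43-zero mature and immature barcodes. The 3 lower members were the tubulin Tuba1b (-0.58), the adhesion gene Emb (-0.14) and Tmsb4x (-0.09), and the sign of Tmsb4x turned without TMM scaling (0.02) and when depth was matched (0.14). With depth matched 31 were higher and 2 lower, and Emb no longer passed (-0.06). In the single-receptor comparison 30 were higher and 1 lower.

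Against the immature barcodes, where 8090 of 12696 genes passed the same test (63.7%; 31.7% higher and 32.1% lower), 27 members of this list were lower and 5 higher. The 5 included Stmn4 (2.06), Tmsb4x (1.15) and Nrn1 (0.74). Without TMM scaling 3138 of all genes were higher and 5380 lower than in the immature barcodes, and the median difference moved from -0.02 to -0.19. Members differed in how far they lay from the immature level. Dcx, a microtubule-associated protein of migrating neurons, was at 226, 218, 237 and 204 CPM against 269, 254, 292 and 266 CPM in the immature barcodes, whereas Fscn1, an actin-bundling protein, was at 13.7, 16.8, 17.9 and 19 CPM against 94.4, 85.1, 87.1 and 82.3 CPM. Both Dcx and Fscn1 were lower in the Gap43-zero mature barcodes, at 81.4 and 2.41 CPM in the mean of 4 libraries.

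Guidance and sorting genes, which steer OSN axons to their glomeruli, split into groups. Of 38 tested, 21 were higher and 10 lower than in the Gap43-zero mature barcodes, with a median of 0.34. The largest differences were those of the adhesion gene Nrcam (2.95), the repellent Sema3a (1.56) and the teneurins Tenm2 (1.05) and Tenm4 (1.0). The semaphorin receptors Nrp2 (0.77) and Nrp1 (0.42) were higher too. Nrp2 was at 219, 246, 211 and 213 CPM against 131, 135, 112 and 106 CPM in the Gap43-zero mature and 338, 398, 357 and 327 CPM in the immature barcodes, without overlap between the 3 groups. In the single-receptor comparison Nrp2 (0.19) and Nrp1 (0.23) did not pass the test. The 10 lower ones were Plxna3 (-0.73), Efna3 (-0.72), Efna5 (-0.68), Epha5 (-0.68), Sema7a (-0.51), Plxna4 (-0.45), Dscam (-0.44), Epha7 (-0.42), Kirrel2 (-0.41) and Unc5b (-0.38). With depth matched 18 of 37 were higher and 9 lower, and Dscam (-0.33), Epha7 (-0.11) and Unc5b (-0.10) no longer passed. The lower ones encode plexins, ephrins and Eph receptors, a semaphorin and adhesion or netrin receptors.

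Epha5, an ephrin receptor gene, lay between its neighbours. It was at 21.1, 22.1, 16.8 and 20.5 CPM in immature, 311, 282, 297 and 248 CPM in newly mature and 458, 406, 433 and 382 CPM in Gap43-zero mature barcodes. The log2 difference from the immature barcodes was 3.99 ± 0.08 (SE, edgeR adjusted p = 4.2e-08). Kirrel2 and Kirrel3, paired adhesion molecules of OSN axons, differed in direction. Kirrel3 was at 113, 107, 103 and 111 CPM against 88.0, 89.5, 80.8 and 87.0 CPM in Gap43-zero mature barcodes, a log2 difference of 0.22 ± 0.03 (SE, edgeR adjusted p = 0.00228). Kirrel2 was at 1007, 859, 929.8 and 706 CPM against 1221, 1081, 1102 and 878 CPM, a difference of -0.41 ± 0.02 (SE, edgeR adjusted p = 6.2e-05), and in the receptor-matched comparison, which takes the same receptors in both groups, it was -0.06. Against the immature barcodes 18 of the 38 genes were higher and 15 lower.

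Synaptic adhesion genes were mostly higher than in the Gap43-zero mature barcodes. Of 19 tested, 13 were higher and 3 lower, with a median of 0.60. The receptor phosphatases Ptprf (2.63) and Ptprd (2.0), Cadm2 (1.94) and the synaptic organizer Cbln1 (2.06) differed most, although Cbln1 was near 0 with a mean of 0.630 CPM. Ptprf was at 78.6, 86.0, 83.8 and 82.2 CPM against 12.9, 13.3, 10.3 and 13 CPM. Nrxn2, a neurexin, was at 35.0, 38.6, 37.5 and 36.9 CPM in newly mature, 15.1, 15.2, 14.1 and 15.2 CPM in Gap43-zero mature and 94.9, 92.8, 91.5 and 96.2 CPM in immature barcodes, with log2 differences of 1.20 ± 0.06 (SE, edgeR adjusted p = 4.4e-05) and -1.18 ± 0.05 (SE, edgeR adjusted p = 1.1e-06). The 3 lower members were Clstn2 (-0.44), Igsf8 (-0.14) and Flrt1 (-0.13). At matched depth 13 of 18 were higher and 2 lower, Igsf8 turned to 0.13 and Flrt1 no longer passed (-0.06). Against the immature barcodes 7 of 20 were higher and 9 lower.

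**Figure D4:**
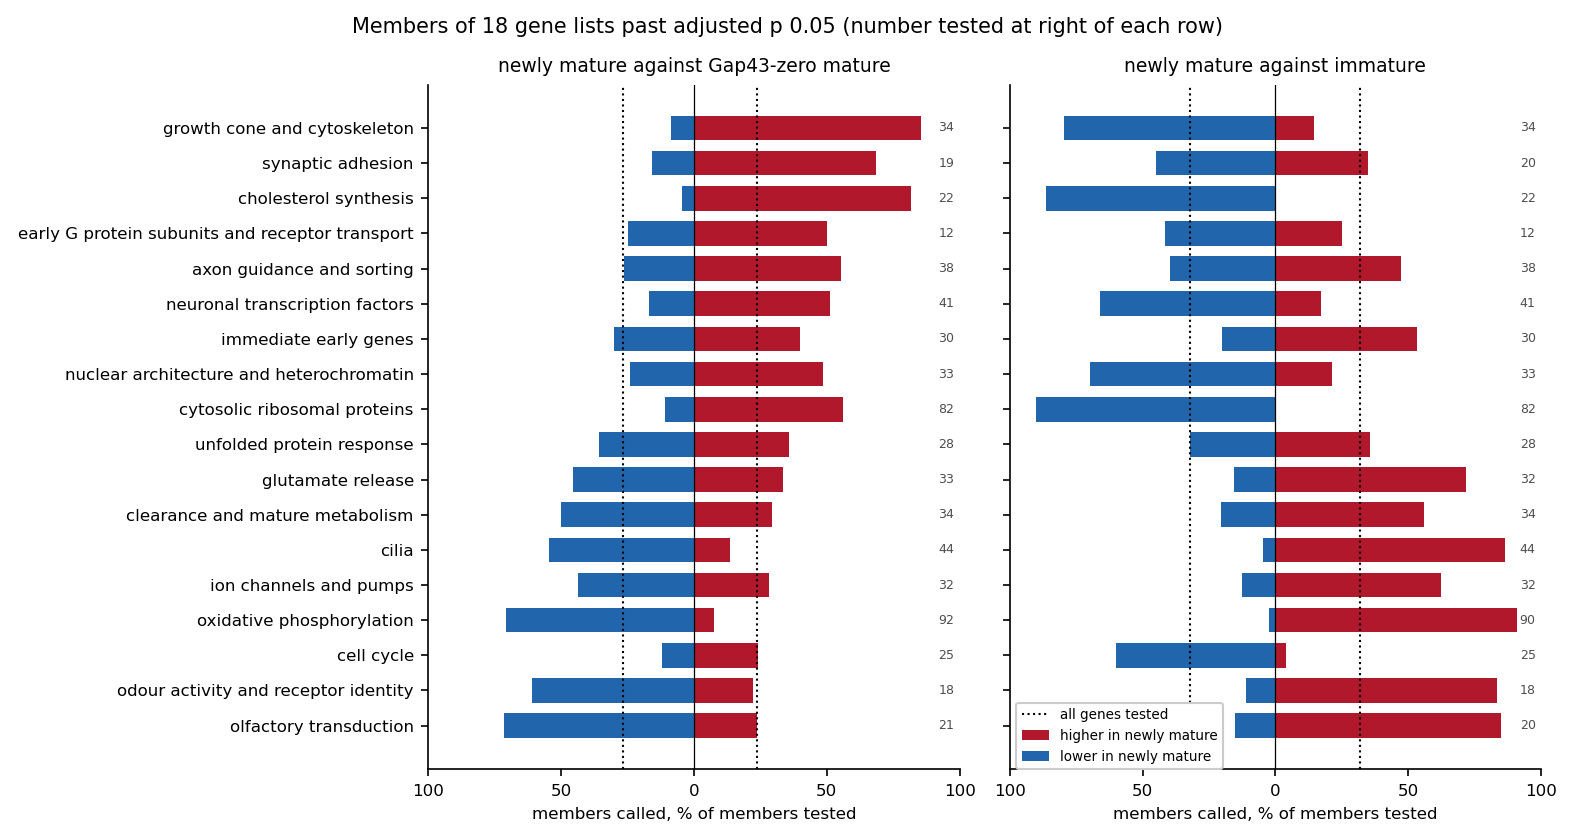
Members of 18 gene lists past edgeR adjusted p 0.05, as a percentage of the members tested, higher to the right and lower to the left, in newly mature against Gap43-zero mature and against immature barcodes; dotted lines show the share over all genes. Growth cone and cholesterol genes are mostly higher than in Gap43-zero mature and lower than in immature barcodes, and transduction, cilia and oxidative phosphorylation genes the reverse.

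Genes of the odour transduction cascade were mostly lower than in the Gap43-zero mature barcodes. Of 21 tested, 15 were lower and 5 higher, with a median of -0.53. The cascade starts with the G protein alpha subunit Gnal (-0.53) and its partners Gnb1 (-0.41) and Gng13 (-0.39). These differed less than the cyclase Adcy3 (-1.77), the channel subunits Cnga4 (-1.48) and Cngb1 (-1.36) and the sodium-calcium exchanger Slc24a4 (-1.58). The channel subunit Cnga2 (-0.67) lay between. Cnga4 was at 241, 213, 222 and 220.4 CPM against 578, 578, 578 and 576 CPM, and Gnal at 2666, 2472, 2538 and 2487 CPM against 3452, 3366, 3399.6 and 3300.5 CPM. All values of both genes were below those of the Gap43-zero mature barcodes. The 5 higher members were Pde2a (2.72), Camk2b (2.49), Rgs2 (1.74), Cnp (1.28) and Arrb2 (0.31). Pde2a is the phosphodiesterase of a minor class of OSNs and was at 9.72, 17.4, 4.66 and 10.4 CPM against 0.941, 1.58, 1.64 and 1.39 CPM. Under the single-receptor comparison 2 of 20 were higher and 14 lower. With depth matched 2 of 21 were higher and 14 lower, and Pde2a (1.03), Rgs2 (0.16) and Cnp (0.08) no longer passed.

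Compared with the immature barcodes 17 of 20 transduction genes were higher, with a median of 2.05. Gnal differed by 3.10, Adcy3 by 2.35, Cnga4 by 3.98 and Stoml3, a stomatin-like protein of the cilium, by 4.94. Stoml3 was at 209.7, 207, 218 and 214 CPM in immature, 6123, 5609, 5699 and 5747 CPM in newly mature and 11056, 10605, 10526 and 10040.3 CPM in Gap43-zero mature barcodes. The 3 lower were Rgs2 (-2.06), Cnp (-0.94) and Arrb2 (-0.68).

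The early G protein subunits and the receptor transporters moved apart. Of 12 tested, 6 were higher and 3 lower than in the Gap43-zero mature barcodes. The higher ones were Gng8 (4.26), Gng3 (2.96), Gnai1 (1.94), Gnas (1.34), Gnao1 (0.64) and the chaperone Ric8a (0.24). With depth matched the count turned to 3 higher and 4 lower, and the median moved from 0.39 to -0.07. There Gnas turned to -0.37, and Gnai1 no longer passed (0.71). The single-receptor comparison gave 5 of 11 higher and 3 lower, with a median of 0.18. Without any matching, the lower ones were the receptor transporters Rtp1 (-0.19), Rtp2 (-0.50) and Reep1 (-0.73). Rtp1 was at 671, 646, 646 and 670.3 CPM against 739, 722, 643 and 683 CPM, with values that overlapped between the groups, and in the depth-matched comparison its sign turned (0.04). Gnao1, at 705 CPM in the mean, did not differ past the threshold from the immature barcodes (0.08 ± 0.05 (SE, edgeR adjusted p = 0.189)).

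Cilia genes were lower than in the Gap43-zero mature barcodes by small amounts and higher than in the immature ones. Of 44 tested, 24 were lower and 6 higher than in the Gap43-zero mature barcodes, with a median of -0.13. Without TMM scaling 17 were lower and 12 higher, and in the depth-matched comparison 8 and 8, where Ttc8 no longer passed (-0.12). The Bardet-Biedl syndrome gene Ttc8 (-0.50), Tulp3 (-0.49), Cep290 (-0.47) and the ciliary kinesin Kif17 (0.46) differed most. The 6 higher members were Kif17 and the kinesin Kif3a (0.13), with B9d1 (0.23), Bbip1 (0.20), Ift27 (0.17) and Ift20 (0.16). Under the single-receptor comparison 14 of 44 were lower and 7 higher. Relative to the immature barcodes 38 were higher and 2 lower, with a median of 0.55.

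Glutamate release genes split. OSNs release glutamate, loaded into vesicles by Slc17a6. Of 33 tested, 11 were higher and 15 lower than in the Gap43-zero mature barcodes, with a median of -0.09. Over all genes 23.7% were higher and 26.7% lower. The largest differences were those of Rab3c (2.58), Syngr1 (-1.16), Syn2 (-0.92) and Unc13a (0.74). Slc17a6 was at 181, 158, 191 and 172 CPM against 262, 248, 269 and 253 CPM, and the vesicle protein gene Syp at 599, 599.6, 579.6 and 592 CPM against 771, 789, 793 and 807 CPM. Neither overlapped, with log2 differences of -0.67 ± 0.03 (SE, edgeR adjusted p = 3.5e-05) and -0.53 ± 0.02 (SE, edgeR adjusted p = 2.5e-05). The balance turned when depth was matched, to 12 higher and 9 lower with a median of 0.15. In the single-receptor comparison the order of the counts was kept, with 10 of 32 higher and 12 lower, while the median turned to 0.04. Without TMM scaling 12 were higher and 12 lower, with a median of 0.02. The 11 higher ones included Rab3c, Unc13a, Stx1a (0.58), Pclo (0.45), Rims2 (0.37), Cacna1a (0.48), Cacna1b (0.30), Syngr3 (0.31) and Syt11 (0.22), genes of vesicle priming, active zones and calcium entry among others. Of these, Cacna1a no longer passed at matched depth (0.24). Compared with the immature barcodes 23 of 32 were higher and 5 lower.

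Genes whose level follows odour activity or receptor identity were mostly lower. Of 18 tested, 11 were lower and 4 higher than in the Gap43-zero mature barcodes, with a median of -0.33. The lower ones were led by Cd55, Pcp4l1 (-1.68), the quinone oxidoreductase Nqo1 (-1.60), a marker of the dorsal zone, and S100a5 (-1.55), a calcium-binding protein of active OSNs. S100a5 was at 5779.9, 5157, 7449 and 4969.8 CPM against 14268, 13174, 20309.7 and 15701 CPM, and at 189, 154, 279.8 and 210.0 CPM in the immature barcodes. Its 3 groups did not overlap. Nqo1 turned to 0.13 in the single-receptor comparison, where it did not pass the test. At matched depth 4 were higher and 9 lower, with a median of -0.05. The 4 higher members were Calb2, the transcription factor Olig1 (0.76), Ckmt1 (0.33) and the protocadherin Pcdh10 (0.76). Pcdh10 was at 149.8, 145, 185 and 132 CPM against 79.9, 72.0, 100.4 and 81.6 CPM. Relative to the immature barcodes 15 were higher and 2 lower, with a median of 2.03.

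Transcription factors of the neuronal lineage were mostly higher than in the Gap43-zero mature barcodes. Of 41 tested, 21 were higher and 7 lower, with a median of 0.32. Insm1 (3.69), Sox11 (3.06), the corepressor subunit Rcor2 (1.64) and Sox4 (1.5) differed most. Insm1 was at 287, 286, 249 and 293 CPM against 23.8, 17.8, 17 and 21.4 CPM in Gap43-zero mature and 809, 769.7, 603 and 719.9 CPM in immature barcodes. The 7 lower ones were Nfix (-0.51), Id4 (-0.39), Tshz2 (-0.25), Ebf2 (-0.13), Lhx2 (-0.12), Atf5 (-0.09) and Ebf1 (-0.07), and Atf5 and Ebf1 turned sign without TMM scaling (0.02 and 0.04). When depth was matched 17 were higher and 11 lower with a median of 0.10, Rcor2 no longer passed (0.27), and Atf5 (0.27), Ebf1 (0.15), Ebf2 (0.06) and Lhx2 (0.02) turned sign. Compared with the immature barcodes 27 were lower and 7 higher, with a median of -0.66. Ebf4 (0.78) and Nfix (0.69) were among the 7.

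Genes of nuclear architecture were more often higher than lower. Of 33 tested, 16 were higher and 8 lower than in the Gap43-zero mature barcodes, with a median of 0.17. Hdac2 (1.15), a histone deacetylase, Dnmt3a (1.09), a DNA methyltransferase, the linker histone H1f0 (0.89) and Lbr (-0.73), the lamin B receptor, differed most. Dnmt3a was at 242, 242, 256 and 244 CPM in newly mature, 110.0, 108, 104 and 105 CPM in Gap43-zero mature and 195, 208, 216 and 207 CPM in immature barcodes, and was the highest of these 3 groups in the newly mature ones of all 4 libraries. The other lower members were Macroh2a1 (-0.38), Cbx5 (-0.38), Lmnb2 (-0.30), Hdac1 (-0.20), Hmgb1 (-0.12), Cbx3 (-0.11) and Cbx1 (-0.09). Without TMM scaling Cbx3 (0.00) and Cbx1 (0.02) turned sign. They also did at matched depth (0.05 and 0.02), where 11 members were higher and 8 lower and Lmnb2 (-0.14), Hdac1 (-0.15) and Hmgb1 (-0.06) no longer passed. Relative to the immature barcodes 23 were lower and 7 higher.

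Cholesterol synthesis genes moved together in both comparisons. Of 22 tested, 18 were higher and 1 lower than in the Gap43-zero mature barcodes, with a median of 0.54, and 19 were lower and 0 higher than in the immature ones, with a median of -0.67. The synthase Hmgcs1 (1.23), Mvd (1.21) and Sqle (1.01) were among those that differed most. Hmgcs1 was at 90.9, 94.0, 101 and 90.6 CPM, against 39.4, 35.0, 37.4 and 36.3 CPM and 226, 250.4, 225 and 230.1 CPM, without overlap. Fdft1, the lower one (-0.11), turned sign without TMM scaling (0.00). At matched depth 16 were higher and 1 lower, and Mvd (0.69) and Fdft1 (-0.01) no longer passed. Under the single-receptor comparison 11 of 22 were higher and 1 lower.

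Ion channels and pumps held members of either direction. Of 32 tested, 9 were higher and 14 lower than in the Gap43-zero mature barcodes, where 23.7% of all genes were higher and 26.7% lower. The higher share lay near that of all genes. Against the immature barcodes 20 were higher and 4 lower, where all genes gave 31.7% and 32.1%. The potassium channel genes Kcnd2 (3.43) and Kcnc1 (2.21) and the calcium pump Atp2b2 (2.33) were higher at low levels of 0.967, 6.20 and 2.20 CPM in the mean. The other higher members were Fxyd6 (2.43), Kcnh7 (2.14), Kcnq3 (1.73), Kcnk2 (1.15), Scn3a (0.90) and Cacna2d1 (0.07). With depth matched 8 of 31 were higher and 11 lower, against 2833 and 2691 of all 12726 genes. There Kcnk2 turned to -0.21 and Kcnq3 no longer passed (1.24). Kcnc4 (-1.49), Slc8a1 (-0.95) and Hcn2 (-0.67) were lower.

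Energy metabolism and protein synthesis differed by small amounts on the mature side and more on the immature side. Of 92 oxidative phosphorylation genes, 65 were lower and 7 higher than in the Gap43-zero mature barcodes, with a median of -0.21. Without TMM scaling 44 were lower and 21 higher, and in the depth-matched comparison 28 and 20. The largest differences were those of the complex I genes Ndufa13 (-0.60), Ndufa2 (-0.55) and Ndufs7 (-0.47) and the assembly factor Ndufaf8 (-0.52). The 7 higher members, Ndufaf6, Atp5md, Ndufa8, Cox6c, Cox7c, Atp5e and Cox7a2, differed by at most 0.22 on the log2 scale. Under the single-receptor comparison 46 of 89 were lower and 4 higher. Compared with the immature barcodes 82 of 90 were higher and 2 lower, with a median of 0.55. Of 82 cytosolic ribosomal protein genes, 46 were higher and 9 lower than in the Gap43-zero mature barcodes, with a median of 0.12. Rplp0 (0.47), Rpl29 (0.44) and Rpl35a (0.42) were among those that differed most. The 9 lower members, Rpl7l1, Rpl3, Rps21, Rpl9, Rpl22l1, Rps25, Rps6, Rpl8 and Rpl7a, differed by -0.06 to -0.33, and Rps6, Rpl8 and Rpl7a among them turned sign without TMM scaling. In the depth-matched comparison 16 were higher and 24 lower, Rplp0 turned to -0.17, and Rpl35a (0.06) and Rpl7a (-0.09) no longer passed. The single-receptor comparison, which also matches depth, gave 28 of 81 higher and 9 lower. Relative to the immature barcodes 74 were lower and 0 higher, with a median of -0.61.

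Stress, activity and cell cycle genes gave mixed counts. Over all genes 23.7% were higher and 26.7% lower than in the Gap43-zero mature barcodes. Of 28 genes of the unfolded protein response, 10 were higher and 10 lower than in the Gap43-zero mature barcodes, led by the glutathione-degrading Chac1 (1.40), Sesn2 (0.92), Trib3 (0.64) and Edem1 (0.56) on the one side and Selenos (-0.51) and Dnajc3 (-0.48) on the other. At matched depth 10 were higher and 6 lower, and Edem1 no longer passed (0.57). Of 30 immediate early genes, 12 were higher and 9 lower. The nuclear receptors Nr4a2 (1.93) and Nr4a3 (1.77), Rgs2 and Btg2 (1.31) differed most. The 9 lower ones were Klf2 (-1.11), Ier2 (-0.84), Jund (-0.48), Fosb (-0.25), Dusp1 (-0.21) and the heat shock genes Dnajb1 (-0.43), Hspa1a (-0.25), Hspa1b (-0.33) and Hspa8 (-0.28). Egr1 was at 643, 615, 639 and 749 CPM against 299, 356, 294 and 399.8 CPM (0.87 ± 0.06 (SE, edgeR adjusted p = 1.5e-04)). In the depth-matched comparison 3 of the 30 were higher and 19 lower, Nr4a2 (0.38), Nr4a3 (0.39) and Rgs2 (0.16) no longer passed, and in the single-receptor one 6 and 6 of 29.

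Of 25 cell cycle genes, 6 were higher, 3 lower and 16 not called against the Gap43-zero mature barcodes, with a median of -0.31. Over all genes 23.7% were higher and 26.7% lower. Against the immature barcodes 15 were lower and 1 higher. The summed level of the list was 704 to 881 CPM, against 367 to 408 in Gap43-zero mature and 1988 to 2244 in immature barcodes. The list includes Stmn1, named above as a growth cone gene, and cell cycle inhibitors, so the sum alone does not show more dividing cells. The inhibitors Cdkn1c (2.23) and Cdkn1b (1.20) were higher, and Hist1h2ap (-0.93), Ccna2 (-0.80) and Pcna (-0.43) were lower. In the depth-matched comparison 3 were higher and 20 lower, and Cdkn1b turned to -0.55. The single-receptor comparison gave 3 of 13 higher and 1 lower. Of 34 genes of clearance and mature metabolism, 10 were higher and 17 lower than in the Gap43-zero mature barcodes. The glutathione transferase Gstp1 (1.15) and the aldolase Aldoc (1.18) were among the higher ones, with Car2 (1.10), Ftl1 (1.06), Cat (0.72), Ldha (0.69), Ckmt1, Pgk1 (0.25), Ldhb (0.17) and Prdx2 (0.08), while the metallothionein Mt1 (-1.06) and Nqo1 were lower. With depth matched 4 were higher and 19 lower. There Ldha (-0.53), Cat (-0.24), Gstp1 (-0.05) and Prdx2 (-0.01) turned sign, and Car2 (1.25) and Pgk1 (0.02) no longer passed.

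The largest differences from the immature barcodes were larger on the higher side than on the lower one. The vasopressin gene Avp (5.34), Stmnd1 (5.18), Dmkn (5.15), Ccdc33 (5.07), S100a5 (4.99), Nrn1l (4.98), the phosphatase Phospho1 (4.96) and Stoml3 (4.94) had the 8 largest positive values. Tex15 (-3.41), the retinoic acid-binding Crabp1 (-3.04), Lypd1 (-2.97), the transcription factor Nhlh1 (-2.94), Mest (-2.72), Cryzl2 (-2.69), the lipid flippase Atp8a1 (-2.65) and Thsd7b (-2.61) had the 8 largest negative values. Each of these 16 passed the edgeR test in the same direction under all alternatives run for this comparison.

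Avp was at 92.8, 92.4, 119.6 and 289 CPM in newly mature and 4.77, 3.00, 4.20 and 3.17 CPM in immature barcodes. Male 2 was higher than the other libraries. In the Gap43-zero mature barcodes it was at 93.2, 57.7, 92.6 and 81.1 CPM, so that the groups overlapped and the difference was 0.64 ± 0.30 (SE, edgeR adjusted p = 0.130). Under the single-receptor comparison it turned to -0.99, also not past the threshold.

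Tex15 was at 20.2, 52.9, 31.1 and 59.5 CPM in newly mature and 512, 440.2, 494 and 476 CPM in immature barcodes, and Crabp1 at 117, 253, 157 and 225 CPM and 1386, 1705, 1934 and 1746 CPM. Female 2 and male 2 were higher than the other libraries in both genes. Both were nearer to their Gap43-zero mature levels of 6.21, 12.6, 5.44 and 5.85 CPM and 28.7, 45.5, 24.3 and 25.9 CPM than to their immature ones.

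Some genes were higher in the newly mature barcodes than in both the immature and the Gap43-zero mature ones. The 8 with the highest level relative to the mean of the neighbours, among genes past both tests in opposite directions along the order, were Apod, Car2, Mfge8, Pcsk1n, Bcl2, Dnaic2, Ptn and Rnd2. They were chosen for this pattern, so their values are a description. Mfge8, a bridge between dying cells and phagocytes, was at 23.5, 22.3, 18.4 and 25.2 CPM in immature, 213, 211, 227 and 229 CPM in newly mature and 99.3, 103, 105 and 109.8 CPM in Gap43-zero mature barcodes.

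Bcl2, which opposes apoptosis, was at 11.2, 11.2, 11.2 and 10.2, 78.8, 74.3, 81.6 and 80.9 and 40.1, 40.5, 45.0 and 42.6 CPM in the same order of groups. Rnd2, a small GTP-binding protein of neurite growth, was at 85.2, 84.9, 88.1 and 104, 175, 157, 192 and 201 and 48.7, 52.6, 55.4 and 60.7 CPM. Neither overlapped with a neighbour. Pcsk1n, an inhibitor of a prohormone convertase, was at 19.4, 17.1, 13.6 and 21.4, 61.8, 70.0, 61.8 and 64.7 and 25.7, 25.1, 23.2 and 24.1 CPM, and the growth factor gene Ptn at 55.3, 51.7, 48.6 and 41.2, 268, 261, 247 and 259.6 and 129, 146, 128 and 151 CPM.

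Dnaic2, an axonemal dynein chain, was at 64.3, 53.8, 63.2 and 58.0 CPM against 46.6, 43.4, 38.2 and 33.8 CPM. Apod, an apolipoprotein that is also a glial marker, was at 14.7, 74.7, 127 and 149 CPM against 8.84, 19.5, 10.7 and 34.2 CPM, and female 1 was far lower than the other libraries. Car2, a carbonic anhydrase, was at 157, 232, 77.4 and 205 CPM against 70.1, 63.2, 75.6 and 70.3 CPM, with male 1 close to the Gap43-zero mature values. The log2 differences from the Gap43-zero mature barcodes in the single-receptor comparison were Apod 0.11, Car2 1.17, Mfge8 1.45, Bcl2 1.07, Rnd2 1.58, Pcsk1n 0.98, Ptn 0.89 and Dnaic2 0.39. Of these, Apod and Car2 no longer passed the test, and in the depth-matched comparison neither Apod (1.24), Car2 (1.25) nor Dnaic2 (0.28) did. Car2 and Dnaic2 turned to -0.53 and -0.21 in the receptor-matched comparison.

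The 8 genes with the lowest relative level were Bpifa1, Reg3g, Cd55, Hist1h2ap, Zmynd8, Impdh2, Ier5 and Pithd1. They too were chosen for this pattern and are given as a description. Bpifa1, Reg3g, Hist1h2ap, Impdh2 and Pithd1 no longer passed against the Gap43-zero mature barcodes in the single-receptor comparison, nor Ier5 and Pithd1 with depth matched. Without female 1, male 1 or male 2, Hist1h2ap and Impdh2 did not pass. Zmynd8, a chromatin reader, was at 175, 141, 195 and 163 CPM in immature, 68.2, 80.1, 79.4 and 66.2 CPM in newly mature and 101, 93.7, 98.9 and 95.2 CPM in Gap43-zero mature barcodes. Ier5 was at 167, 137, 176 and 129, 65.3, 78.5, 70.3 and 60.4 and 78.6, 85.0, 83.7 and 78.5 CPM. Zmynd8 did not overlap with a neighbour, whereas Ier5 overlapped slightly with the Gap43-zero mature values. Bpifa1 in the immature barcodes was at 2751, 5109.9, 228 and 234 CPM, so the 2 female libraries were far higher than the male ones there.

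Nearly all newly mature barcodes had a receptor. A receptor with at least 3 UMIs was found in 95.3%, 92.2%, 96.1% and 93.8% of them, a mean of 94.3% ± 1.72 (SD, n = 4). In the Gap43-zero mature barcodes the mean was 94.9% ± 0.282 and in the immature ones 60.9% ± 3.48. The newly mature share was lower than the Gap43-zero one in 2 of 4 libraries (exact paired permutation p = 0.625), and higher than the immature one in 4 of 4 (p = 0.125). Receptor UMIs made up 0.746% ± 0.0546 of all UMIs in newly mature, 0.893% ± 0.0353 in Gap43-zero mature and 0.252% ± 0.0107 in immature barcodes. The newly mature values were below the Gap43-zero ones in 4 of 4 libraries, by 0.147 percentage points in the mean. Against depth-matched Gap43-zero mature barcodes the difference was 0.0280 percentage points, lower in 3 of 4 libraries.

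Single receptor genes were tested as expression and as numbers of barcodes. As expression, 376 of 850 receptor genes tested were lower and 21 higher than in the Gap43-zero mature barcodes. Of the 1102 receptor genes listed, 325 had 0 UMIs in the newly mature barcodes, which are fewer than the Gap43-zero ones, and a fitted difference at 0 UMIs is no bound. With equal numbers of barcodes in the depth-matched comparison 63 of 435 were lower and 52 higher.

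As numbers of barcodes, 1069 newly mature barcodes were assigned to 404 receptors and 12654 Gap43-zero mature ones to 916. A barcode was assigned to its top receptor where that gene reached 3 UMIs and 80% of all receptor UMIs. Of the 188 receptors with at least 20 barcodes over both groups, 8 (4.26%) passed the edgeR test, all with a higher share of the newly mature barcodes. With so few newly mature barcodes a lower share could hardly pass. Olfr523, at 0 newly mature against 43 Gap43-zero mature barcodes, had an edgeR adjusted p of 0.255. That all calls were higher is therefore no result about direction. Olfr1507 (GRCm38, GENCODE M21, chromosome 14, 52488791 to 52495749) was assigned to 14, 9, 5 and 8 newly mature barcodes, 3.29% ± 1.05 (SD, n = 4) of those assigned, against 0.956% ± 0.050 of the Gap43-zero mature ones. Its log2 difference was 1.80 ± 0.26 (SE, edgeR adjusted p = 1.0e-06). Olfr1348 (chromosome 7, 6499793 to 6508748) was assigned to 7, 8, 4 and 8 newly mature barcodes, 2.51% ± 0.620 against 1.01% ± 0.134, with a log2 difference of 1.30 ± 0.28 (SE, edgeR adjusted p = 0.00626). Both shares were higher in 4 of 4 libraries.

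The other 6 rested on few barcodes, and 2 of them, Olfr1182 and Olfr1213, had none in 1 library. They were Olfr1196 (11 newly mature against 11 Gap43-zero mature barcodes), Olfr325 (13 against 24), Olfr1182 (8 against 12), Olfr1213 (12 against 28), Olfr328 (10 against 21) and Olfr281 (10 against 23). Olfr1196, Olfr1182 and Olfr1213 lie on chromosome 2, and Olfr325 and Olfr328 on chromosome 11. In the other direction Olfr720 was assigned to 1 newly mature and 81 Gap43-zero mature barcodes (edgeR adjusted p = 0.0816) and Olfr6 to 1 and 74 (0.137), both short of the threshold. With only receptors of at least 40 barcodes, 2 of 72 passed. In the depth-matched comparison 0 of the 8 receptors left to test passed the edgeR test, with 2 at an unadjusted p under 0.05, and Olfr1507 (0.62) and Olfr1348 (0.76) were not past the threshold. Leaving out 1 library left 1 to 4 called, the fewest without male 2.

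**Figure D5:**
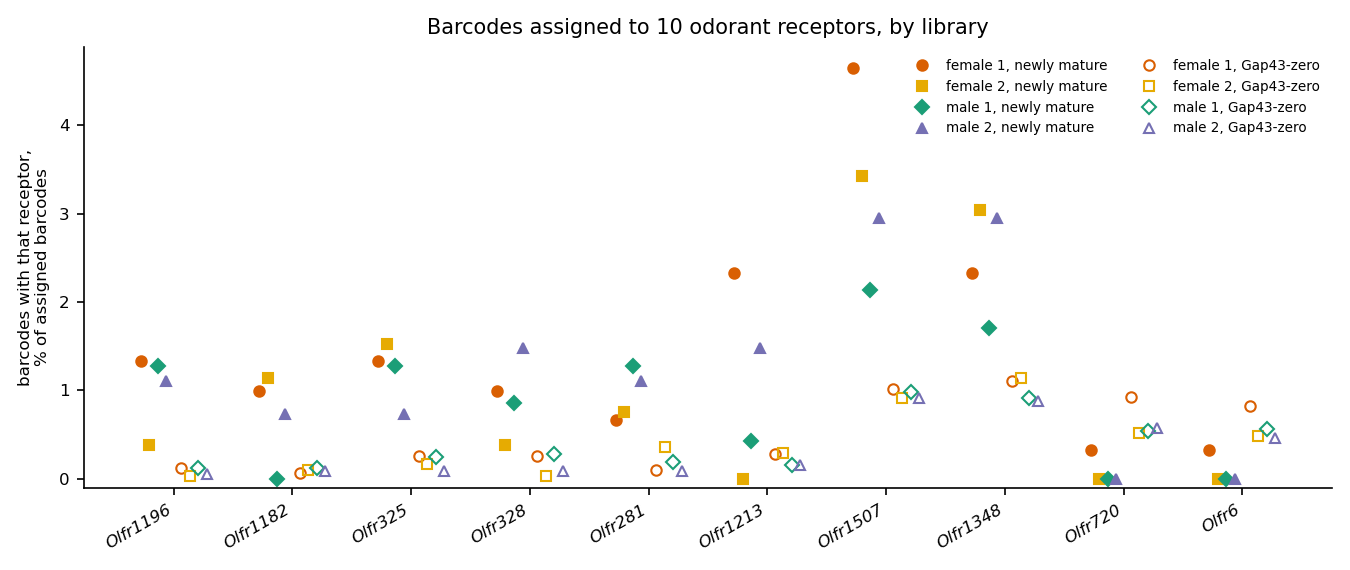
Barcodes assigned to each named receptor, as a percentage of the assigned barcodes of a library, in newly mature and Gap43-zero mature barcodes; points are libraries. Olfr1507 and Olfr1348 are the most used of these receptors, and their newly mature points lie above the Gap43-zero mature ones.

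The members differed among themselves along Gap43. By Gap43 they fell into 474 barcodes with 3 to 5 UMIs, 426 with 6 to 12 and 426 with at least 13. The 3 groups differed in the gene that defined them, and also in depth (median 12515.5, 13282.5 and 15290.5 UMIs) and in the share with a second receptor (10.1%, 12.9% and 31.9%), whose part in the values below was not tested. Values are means ± SD over 4 libraries, with no test.

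Gng8 stood at 39.7 ± 20.5 CPM at the fewest Gap43 UMIs, 116 ± 19 CPM in the middle and 378 ± 32.2 CPM at the most. Stk32a stood at 52.6 ± 7.36, 126 ± 36.1 and 271 ± 14.1 CPM in that order, and Calb2 at 998 ± 144, 1487 ± 130.0 and 2062 ± 84.7 CPM. All 3 increased with Gap43. Stmn4 went the other way with 1005 ± 37.6, 895 ± 63.0 and 662 ± 65.0 CPM, as did S100a5 with 8879.9 ± 2047, 6409.7 ± 1270.2 and 2717 ± 858 CPM. Adcy3 stood at 773 ± 78.0, 469 ± 53.6 and 387 ± 43.9 CPM. Kif19a (219 ± 32.7, 393 ± 36.4 and 407 ± 17.2 CPM) differed little between the last 2 groups. Bcl2 was highest in the middle, at 68.3 ± 3.25, 94.7 ± 14.8 and 74.5 ± 4.76 CPM.

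Along Omp the order of Gng8 and Adcy3 was the opposite. The groups held 371 barcodes with 20 to 49 UMIs of Omp, 669 with 50 to 99 and 286 with at least 100. Gng8 stood at 344 ± 54.9, 158 ± 25.1 and 98.7 ± 16.7 CPM, and Adcy3 at 229 ± 34.1, 517 ± 27.7 and 871 ± 84.8 CPM. Stmn4 was highest in the middle group, at 648 ± 45.8, 955 ± 48.7 and 819 ± 61.5 CPM. Even the group with the most Omp held more Gng8 than the Gap43-zero mature barcodes, at 9.13 CPM, and less Adcy3, at 1689 CPM. The share with a second receptor increased with Omp as well (10.0%, 17.5% and 29.7%).

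Members with 1 receptor and with a second one differed in several named genes. Gng8 was at 117 ± 25.5 CPM in the 1011 barcodes with 1 receptor and 339 ± 40.9 CPM in the 239 with a second one. Dpysl3 was at 259 ± 26.3 and 559 ± 69.7 CPM, and Sox11 at 139 ± 5.57 and 248 ± 32.9 CPM. Calb2 was at 1606 ± 85.0 and 1317 ± 50.5 CPM, Mfge8 at 244 ± 13.8 and 136 ± 28.0 CPM, and Stmn4 at 931 ± 42.1 and 609 ± 73.7 CPM. The members with 1 receptor thus had less of the immature genes Gng8, Dpysl3 and Sox11 and more of Calb2, Mfge8 and Stmn4.

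Male and female newly mature barcodes differed in few genes. Of 11717 genes tested with 2 sums against 2, 34 passed the edgeR adjusted p of 0.05, which is 0.290%, with 18 higher and 16 lower in males. The Y chromosome genes Eif2s3y, Ddx3y, Uty and Kdm5d were among the 18 and check the labels. Eif2s3y was counted 0 times in both female and 366 and 433 times in the male sums. Another 29 were odorant receptors, each held by 2 to 6 barcodes with at least 3 UMIs (median 2). The remaining one was Krt14, a keratin of basal cells, with 78, 72, 3 and 1 UMIs in 6 barcodes. Without female 2 the test called 5 genes, of which 4 were among the 34. Without female 1, male 1 or male 2 it called 23, 23 and 24, of which 12, 7 and 8 were among the 34.

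Olfr1477 shows what such a receptor call rested on. It had 208, 144, 0 and 0 UMIs in the newly mature barcodes, held by 4 barcodes of which the highest had 111 UMIs. In the Gap43-zero mature barcodes it had 73, 185, 237 and 93 UMIs, with no such order between the sexes. Olfr1380, among the highest in males, had 0, 0, 92 and 137 UMIs in 2 barcodes, and 248, 80, 207 and 1 in the Gap43-zero mature ones. Receptors of few barcodes made up 29 of the 34 calls between the sexes.

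Whether the difference between newly mature and Gap43-zero mature barcodes depended on sex was tested with an interaction term. Of 14300 genes, 1 passed (0.00699%), the receptor gene Olfr1226 (chromosome 2, 89188839 to 89200048). It had 391, 332, 5 and 3 UMIs in the newly mature barcodes, where 1, 2, 0 and 0 barcodes were assigned to it. At least 3 of its UMIs were held by 6 newly mature barcodes, the highest with 146. In the Gap43-zero mature barcodes it had 4894, 4377, 4128 and 3234 UMIs over 29, 35, 28 and 24 barcodes. The interaction was -5.88 ± 0.14 on the log2 scale (SE, edgeR adjusted p = 0.00472), and without male 1 no gene passed (572 genes at an unadjusted p under 0.05).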

How the data were processed

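RNA of dissociated main olfactory epithelium was counted in 4 libraries made with 10x Genomics 5′ chemistry. The authors deposited raw UMI counts per gene and barcode, as whole numbers without normalization. Per the file headers the matrices came from Cell Ranger 6.0.2, while the submitters' processing notes name Cell Ranger 5.0.1 and the build mm10. Of 22399 gene IDs, 22285 (99.5%) were found in GENCODE M21 (GRCm38), which gave the coordinates. Promoters and their build come from RefSeq. The members and gene lists were chosen with earlier results of these data known.

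UMIs were summed per library and group. The sums were compared with edgeR 4.0.16 (quasi-likelihood test, TMM scaling, filterByExpr, Benjamini-Hochberg adjustment) with the library as a block, since both sums come from the same library. The check of this pairing gave correlations of the deviations of newly mature and Gap43-zero mature sums of 0.111, 0.126, 0.121 and 0.073 within a library, against at most 0.063 with another. Sexes were compared without a block. Receptor use was tested on numbers of assigned barcodes for receptors with at least 20, without TMM scaling. Barcode shares were compared with exact permutation tests over libraries. The scripts were tested on simulated data.

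Doublets were not removed. Barcodes were scored by the share of simulated pairs among 50 neighbours in 30 components of 2000 variable genes (scikit-learn 1.9.0), and the highest scores, 0.8% of barcodes per 1000 in a library, were left out as an alternative. Other alternatives were stricter limits on Omp, Gap43, Cyp2g1 and UMIs, no filter, no TMM scaling, DESeq2 1.42.0, depth-matched and receptor-matched Gap43-zero mature barcodes, no second receptor, and each library left out. The single-receptor comparisons, the depth-matched share with a second receptor and the crossed pairing were chosen after seeing the data.

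Named genes were the 15 highest and 15 lowest against Gap43-zero mature and the 8 each way against immature barcodes, past an adjusted p of 0.05, in the same direction in 4 of 4 libraries and with at least 50 CPM, without receptors, mitochondrial and rule genes. Up to 4 leading members of each list and those against most of their list, the 8 highest and 8 lowest relative to both neighbours, and up to 5 genes each way by sex were added. Other genes named from the lists were chosen after their values were seen. The number of UMIs, not of reads, sets the precision of each value. Some members of the lists are counted but not reported here by name.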

Additional observations from a re-analysis of the deposited data

Results flagged for a closer look

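The difference between newly mature and Gap43-zero mature barcodes depended on sex for 1 receptor gene, Olfr1226, by the interaction term of the edgeR fit (log2 -5.88). At least 3 UMIs of Olfr1226 were held by 6 newly mature barcodes, the highest with 146 UMIs. Only 3 newly mature barcodes were assigned to it, of which 1 was in female 1 and 2 in female 2.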

How the results depend on the processing

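The count of genes that differed from the Gap43-zero mature barcodes was 7214, and 4656 in the receptor-matched and 3735 in the single-receptor comparison. It was 6883 with no replicate block, and that from the immature barcodes was 7738 against 8090. For the sexes DESeq2 called 68 genes and edgeR 34. Leaving out 1 library gave 5 to 24, the fewest without female 2. The replicate block by label number gave 48, and crossed numbers gave 27. Deviations of same-numbered libraries of the sexes had correlations of -0.367 and -0.349. Deviations from the mean of the same 4 libraries are negatively correlated by construction. These values therefore cannot show whether the numbers pair the libraries. For the interaction DESeq2 called 41 genes, and leaving out 1 library gave 0 to 18, with 0 by edgeR without male 1. Receptor use gave 2 receptors from 40 barcodes, 0 depth-matched (8 tested), 5 without the highest doublet scores, 9 with no replicate block and 1 to 4 without 1 library. The share of members was 5.59% from 5 UMIs of Gap43 and 6.74% without the highest doublet scores. The difference in second receptors was 6.30 points thinned, 6.42 without the highest doublet scores and -4.83 depth-matched. Causes were not tested.

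Single genes turned sign against the Gap43-zero mature barcodes as follows (log2). Depth-matched, values were Atf5 0.27, Cat -0.24, Cbx1 0.016, Cbx3 0.054, Cdkn1b -0.55, Ebf1 0.15, Ebf2 0.057, Gnas -0.37, Gstp1 -0.048, Igsf8 0.13, Kcnk2 -0.21, Ldha -0.53, Lhx2 0.018, Prdx2 -0.011, Rplp0 -0.17, Rtp1 0.044 and Tmsb4x 0.14. In the single-receptor comparison they were Atf5 0.14, Atp5e -0.024, Avp -0.99, Cbx1 0.037, Cbx3 0.014, Dmkn -0.012, Emb 0.0006, Hmgb1 0.083, Igsf8 0.053, Mest -0.95, Nqo1 0.13, Prdx2 -0.031 and Tmsb4x 0.17. Without TMM scaling they were Atf5 0.024, Cbx1 0.022, Cbx3 0.005, Ebf1 0.043, Fdft1 0.0045, Rpl7a 0.056, Rpl8 0.012, Rps6 0.0042 and Tmsb4x 0.025. Receptor-matched they were Cacna1b -0.038, Cacna2d1 -0.059, Car2 -0.53, Dnaic2 -0.21 and Tmsb4x 0.023. From 5 UMIs of Gap43 Avp was -0.21, and without the highest doublet scores Tmsb4x was 0.029. Of the results rerun in the single-receptor comparison with the Gap43-zero mature barcodes 147 kept direction and side of the threshold and 43 no longer passed. Depth-matched these numbers were 191 and 36. Few UMIs or barcodes limit the tests of single receptors and of genes near 1 CPM.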
